A study of Mus musculus with 4 samples.

Results

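The genes described here mark the Schwann cell lineage and its immature state, and comprise the transcription factors Sox10, Sox2 and Pou3f1, the receptors Erbb2, Erbb3 and Ngfr, the glial proteins S100b and Gfap, and the adhesion molecules Ncam1 and L1cam. They were chosen by name: every probe for a mouse transcript whose gene name on the array was one of these 10 genes was taken, which gave 14 of 39418 probes and 10 of 31087 gene names. Gene expression was measured in IMS32, a line of adult mouse Schwann cells that became immortal spontaneously in culture, to ask how external pyruvate and the glucose concentration act on these cells. The cells were kept for 1 h in DMEM with fetal bovine serum containing normal (5 mM) or high (15 mM) glucose and either 1 mM or no pyruvate. At normal glucose the groups were [Glc 5 mM/Pyr (+)] with pyruvate and [Glc 5 mM/Pyr (−)] without it, at high glucose they were [Glc 15 mM/Pyr (+)] and, without pyruvate, [Glc 15 mM/Pyr (−)], and each had 1 one-colour array. All groups shared the line, the medium and the serum, and the line grew without axons, so the genes were read in 1 immortalized line without neurons.

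Schwann cells arise from the neural crest, and Sox10 is needed at every step of the lineage from the crest cell to the mature glial cell. Immature Schwann cells carry Sox2, the neuregulin receptors, the neurotrophin receptor p75, and adhesion molecules such as NCAM and L1. Cells that go on to myelinate switch on Pou3f1 and then Egr2 and lose most of these immature markers, while non-myelinating cells and cells of injured nerve keep or regain them.

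Gfap and Ncam1 were the only genes of the set with several probes, which the array design assigns to different transcript variants. Part of each probe is printed to show that they read separate stretches of the gene. The coordinates are those of the files, in mm9, all lie on the minus strand, and the stretch is the first 30 bases of the 60-base probe, 5′ to 3′. The bases are in lower case because no motif was sought.
Gfap (1), variant 2, chr11:102748894-102748923: tttgaggaactgaaacgtgttgtgttcaag
Gfap (2), variant 1, chr11:102751843-102751872: ggttatattaacagagctagcctatgctaa
Gfap (3), variant 1, chr11:102752756-102752785: caaaaggctcacaatacaagttgtcccaat
Ncam1 (1), variant 3, chr9:49310350-49310379: actttttactgagtgaaacatcaacaccac
Ncam1 (2), variant 2, chr9:49323411-49323440: ctgtgtattagtacagtccgtacaccatgt
Ncam1 (3), variant 2 and others, chr9:49351212-49351241: tggaaggcattgtcaccatcatgggcctga
The first Ncam1 probe is labelled variant 3 but is matched by the array design to more than 1 transcript, so it is not specific to that variant. The third Ncam1 probe is listed for variant 2 and is also matched to the transcripts of the first Ncam1 probe, so it reads several forms of the mRNA. The exon or UTR in which each probe lies was not analysed here.

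All 10 genes were detected on all 4 arrays, that is, at least 1 probe of each was well above background by the scanner software's own criterion. Of the 14 probes, 13 were well above background in [Glc 5 mM/Pyr (+)] and 12 in each of the other groups. Over all probes the share was 77.0%, 74.9%, 72.2% and 73.4% in the order in which the groups were introduced, and no spot was saturated. Both exceptions were the Gfap probes of variant 1, of which the second in the list above was detected only in [Glc 5 mM/Pyr (+)] and the third on no array. Levels below are background-corrected intensities on the linear scale, always with the values at normal glucose with and without pyruvate first, followed by those at high glucose with and without pyruvate. The 75th percentile of an array, to which each level was scaled before arrays were compared, was 1789, 1742, 1598 and 1632, so the scale of the raw intensities was lower at 15 mM glucose. Intensities of different probes are not comparable, since each probe binds its target with its own strength. In RNA from a whole culture, fewer cells that express a gene and less of its RNA per cell cannot be told apart.

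The transcription factors came first. The Sox10 probe (chr15:78985518-78985577) read 5413, 5667, 4837 and 5409. After scaling, these values lay within 0.13 of each other on the log2 scale. The probe for Sox2 (chr3:34550773-34550832), which encodes a factor that holds Schwann cells in the immature state and opposes myelination, read 5591, 5481, 5096 and 4925. Its scaled range of 0.08 was narrower still, and the 4 arrays had nearly the same level. Pou3f1 (chr4:124337692-124337751), the POU factor also known as Oct6 or SCIP that marks the promyelinating step, was read at 170, 142, 127 and 140. Its highest scaled value was in [Glc 5 mM/Pyr (+)] and its lowest in [Glc 15 mM/Pyr (+)], 0.25 apart on the log2 scale.

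Neuregulin 1 on axons acts through ErbB3, which binds the ligand, paired with ErbB2, which carries the kinase activity. The Erbb2 probe (chr11:98298103-98298162) was printed 10 times on each array and read 533, 558, 463 and 475 as a mean over the 9 or 10 spots kept, with an SD between spots of 0.05 to 0.07 on the log2 scale. The Erbb3 probe (chr10:128006424-128006483) read 22.2, 21.8, 16.4 and 15.6, whereas the lowest signal called well above background on these arrays was 8.60, 9.88, 10.5 and 10.2. Erbb3 was thus detected close to the limit of the assay, and the scanner software gave its levels an error of 0.19 to 0.26 on the log2 scale, against 0.14 for the bright probes. Ngfr, which encodes the p75 neurotrophin receptor and is a standard surface marker of immature and repair Schwann cells, was read by another probe printed 10 times (chr11:95430211-95430270). It gave 17404, 18042, 14827 and 15499, with an SD between spots of only 0.03 to 0.04. On the scaled values, the range over the arrays was 0.14 for Erbb2, 0.39 for Erbb3 and 0.16 for Ngfr.

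**Figure D1:**
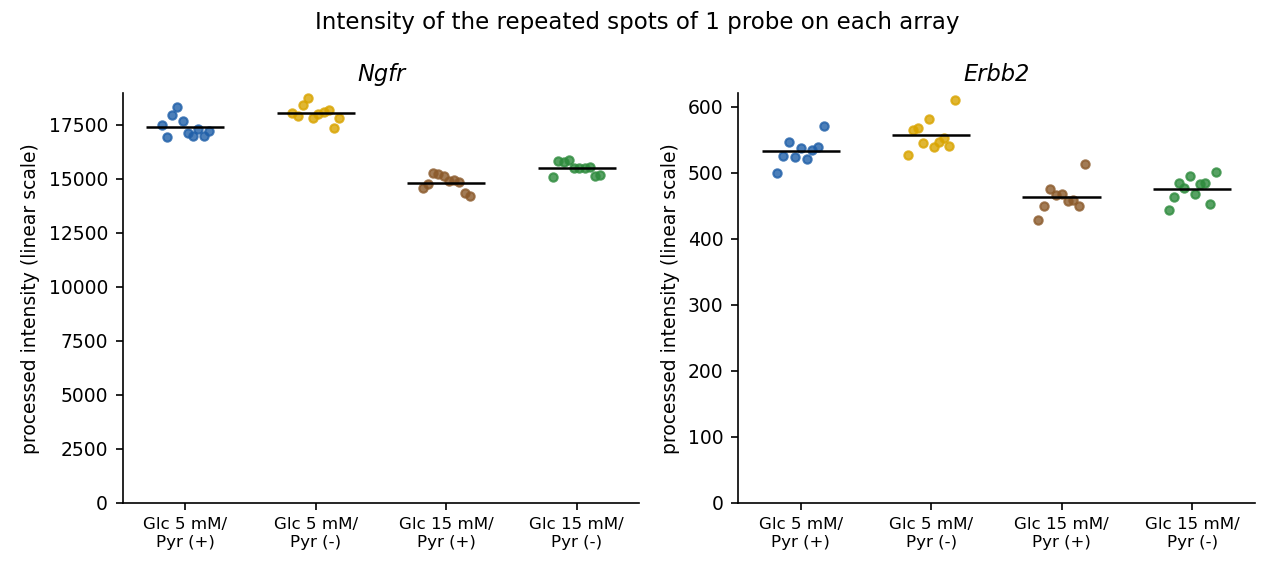
Processed intensity (linear scale, from 0) of each repeated spot of the Ngfr and Erbb2 probes on the 4 arrays, before scaling between arrays, with the mean of the 9 or 10 spots as a line. The spots of 1 array lie close together, which shows the error within an array only, and both genes read lower on the 15 mM glucose arrays, whose 75th percentiles were also lower (1598 and 1632 against 1789 and 1742).

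S100b, the calcium-binding protein used most widely to stain Schwann cells, was read at 3519, 3913, 3552 and 4319 (chr10:75723783-75723842). Its scaled value was lowest in [Glc 5 mM/Pyr (+)] and highest in [Glc 15 mM/Pyr (−)], and this range of 0.43, or 1.35-fold, was the widest of the 12 probes detected on all arrays. Gfap, the glial intermediate filament of non-myelinating and injured Schwann cells, was read clearly by its variant 2 probe alone, at 68.2, 76.4, 52.9 and 54.9. The first variant 1 probe read 12.3, 9.004, 10.3 and 2.78, and the other read 3.77, 3.23, 3.40 and 2.52. Both thus lay near the background, with errors of 0.31 to 1.44 on the log2 scale.

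The adhesion molecules NCAM and L1 are carried by immature and non-myelinating Schwann cells and bind axons and other glia. Of the Ncam1 probes in the order given above, the first read 29376, 27958, 26602 and 22234. The second read 3337, 2848, 2645 and 2421, and the third read 3080, 2846, 2732 and 2720. The scaled range was 0.29 for the first probe, 0.33 for the second and 0.08 for the third. The first and second had their lowest scaled value in [Glc 15 mM/Pyr (−)], and the third had its lowest in [Glc 5 mM/Pyr (−)]. L1cam (chrX:71100374-71100433) was read at 130.2, 122, 108 and 117, a scaled range of 0.11.

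**Figure D2:**
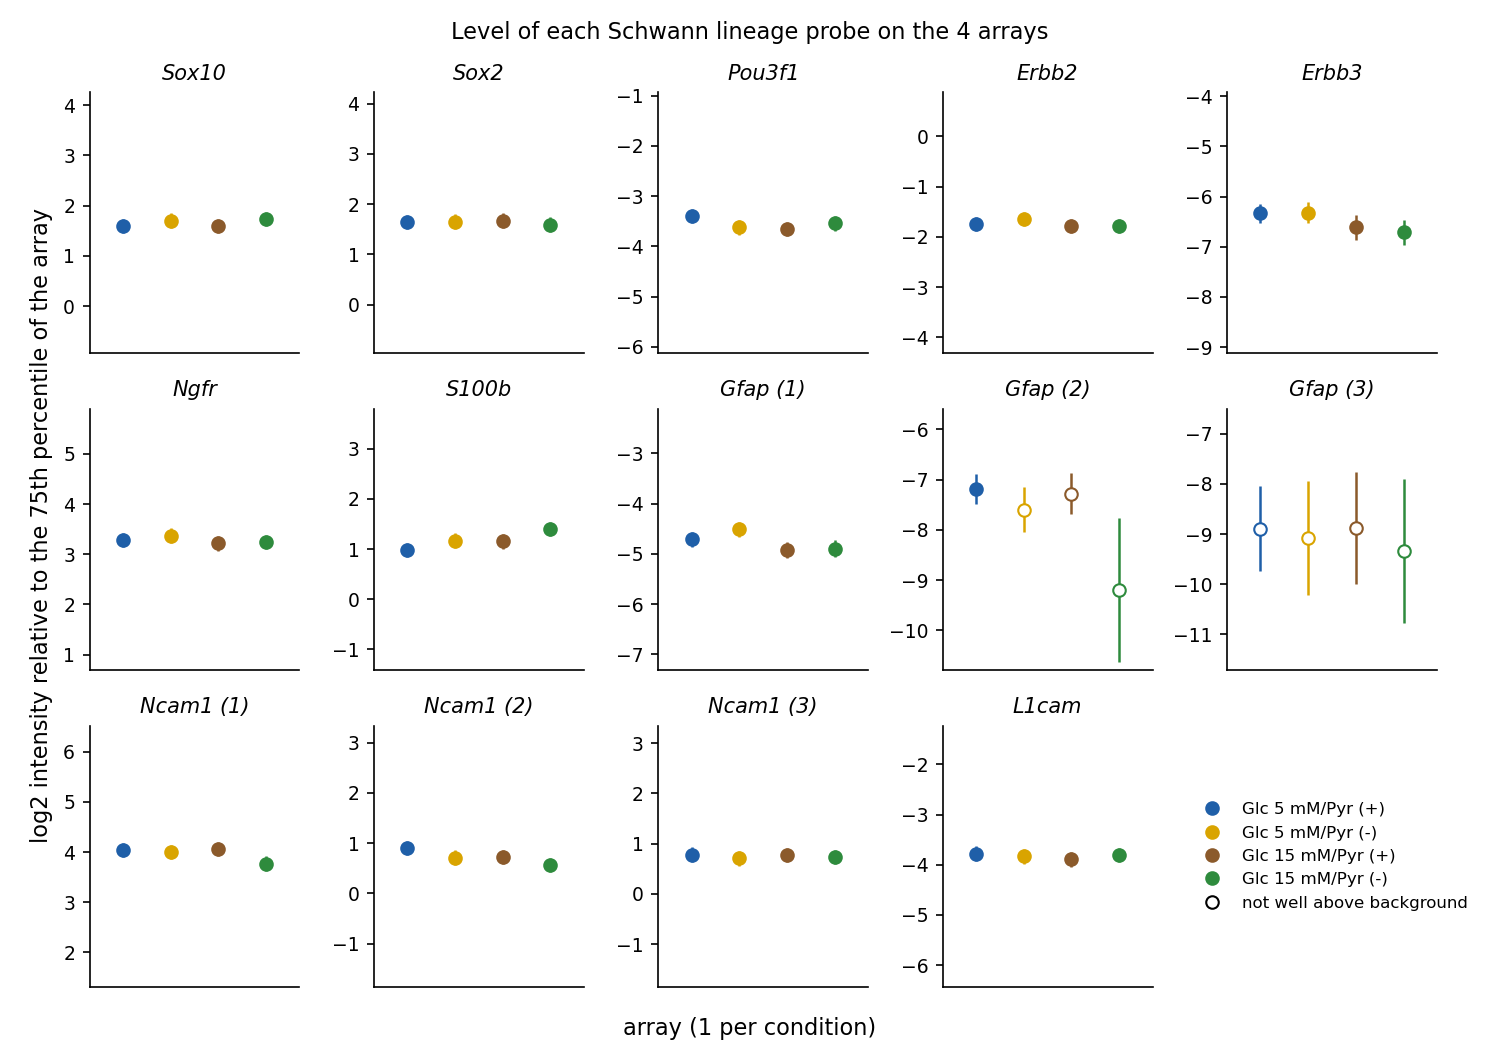
Log2 intensity relative to the 75th percentile of the array for each of the 14 probes in the 4 groups (1 array each), with bars for the error the scanner software assigns to the level and open circles for values not well above background. Every panel spans the same height on its own axis, and apart from Gfap (2) and Gfap (3) no probe ranged over more than 0.43.

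The 12 probes detected on all arrays had a median range of 0.21 over the 4 groups, from 0.08 to 0.43. Over all 27589 such probes on the array the median range was 0.25. A range of 0.5 was reached by 0 of the 12 probes and by 4498 probes of the array (16.3%), so no member varied enough to search for genes with a like pattern.

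With 1 array per group, the difference between 2 groups had no test and no spread between cultures. Each difference below is a difference of scaled log2 values between 2 arrays and is set beside 2 measures of error within an array. One is the error that the scanner software assigns, about 0.20 for the difference of a probe of good signal and up to 0.36 for Erbb3. The other, for Ngfr and Erbb2, is the standard error over repeated spots, 0.01 to 0.03. Neither covers the variation between cultures. A probe was counted as different past 2-fold, and only probes well above background on both arrays were counted.

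Pyruvate removal at normal glucose left the 12 probes detected on both arrays within 0.22 of their level with pyruvate on the log2 scale. Of 12 measured probes, 0 were past 2-fold, where 1.17% of all probes were. The median difference of [Glc 5 mM/Pyr (−)] minus [Glc 5 mM/Pyr (+)] was 0.01 for the members and −0.02 for all probes. S100b was higher by 0.19 ± 0.20 without pyruvate (± the assigned error, here and below) and the Gfap variant 2 probe by 0.20 ± 0.21, and both stayed above 0 under each of 6 ways to process the arrays, S100b only just (0.0037 after scaling to spike-in probes). Pou3f1 was lower by 0.22 (−0.22 ± 0.21). All the Ncam1 probes were lower, at −0.03, −0.19 and −0.08 ± 0.20, and these signs too were the same under the 6 ways of processing. The second Ncam1 probe was the only member outside the range that held the central 95% of probes of like brightness, which ran from −0.18 to 0.19. Sox10 (0.10), Erbb2 (0.10) and Ngfr (0.09) were higher on the 75th percentile scale but lower, at −0.08, −0.08 and −0.10, after spike-in scaling. Sox2 and Erbb3 (both 0.01) and L1cam (−0.05) also had signs that turned with the processing. The second Gfap probe, detected with pyruvate only, was at least 1.21-fold lower without it, a bound that lies within the assigned error of 0.55 on the log2 scale.

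Pyruvate removal at high glucose gave its largest differences in S100b, which was higher, and Ncam1, which was lower, and neither reached 1.5-fold. Of 12 measured probes, 0 were past 2-fold, where 2.10% of all probes were. The median difference of [Glc 15 mM/Pyr (−)] minus [Glc 15 mM/Pyr (+)] was 0.02 for the members and 0.03 for all probes. S100b was higher without pyruvate by 0.25 ± 0.20, and by 0.22 to 0.25 over the 6 ways of processing. The first Ncam1 probe was lower, at −0.29 ± 0.20 (−0.33 to −0.27 over the 6 ways). The other Ncam1 probes were at −0.16 and −0.04 ± 0.20, also below 0 each way. All 3 probes of this gene were thus lower in both pyruvate comparisons, which share no array, and whether their sizes differ was not tested. In these comparisons 44.3% of all probes were higher at 5 mM and 56.1% at 15 mM glucose. The 3 probes read 1 gene on the same arrays, so they are not independent. Only the first, at 15 mM glucose, differed by more than its assigned error. Sox10 was at 0.13 ± 0.20 and remained above 0 each way, and Sox2 (−0.08) and Erbb3 (−0.11) remained below 0. Pou3f1 (0.11) and L1cam (0.08) were above 0 except with normexp background correction. Erbb2 (0.01), Ngfr (0.03) and Gfap (0.02) were within 0.03 of 0 and changed sign with the processing.

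High glucose with pyruvate present differed little. Of 12 measured probes, 0 were past 2-fold, where 0.968% of all probes were. The median difference of [Glc 15 mM/Pyr (+)] minus [Glc 5 mM/Pyr (+)] was −0.05 for the members and −0.02 for all probes. Pou3f1 (−0.25 ± 0.21), Ngfr (−0.07) and the second Ncam1 probe (−0.17 ± 0.20) were lower at high glucose under all 6 ways of processing, and the signs of the other 9 probes were not kept. Erbb3 was at −0.27 ± 0.31 and Gfap at −0.20 ± 0.22, but both turned to 0.15 and 0.09 with normexp background correction. S100b was at 0.18 ± 0.20 and turned to −0.17 with spike-in scaling. The second Gfap probe was at least 1.05-fold lower at high glucose, again within its assigned error of 0.52 on the log2 scale.

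High glucose without pyruvate gave the largest differences of the set. Of 12 measured probes, 0 were past 2-fold, where 2.40% of all probes were, and 0 were past 1.5-fold, where 7.27% were. The median difference of [Glc 15 mM/Pyr (−)] minus [Glc 5 mM/Pyr (−)] was −0.09 for the members and 0.03 for all probes, with 5 probes higher and 7 lower. Erbb3 (−0.39 ± 0.33), Gfap (−0.38 ± 0.22) and the first Ncam1 probe (−0.24 ± 0.20) were lower, and S100b was higher (0.24 ± 0.20). The signs of these 4 probes were the same under all 6 ways of processing, as were those of the second Ncam1 probe (−0.14), Erbb2 (−0.14), Ngfr (−0.13) and Sox2 (−0.06). For Ngfr and Erbb2 the standard error over spots was 0.01 and 0.03, so these differences were larger than the error between spots but smaller than the assigned error of 0.20, and their variation between cultures is unknown. Sox10 (0.03), Pou3f1 (0.07), L1cam (0.02) and the third Ncam1 probe (0.03) had signs that turned with the processing.

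**Figure D3:**
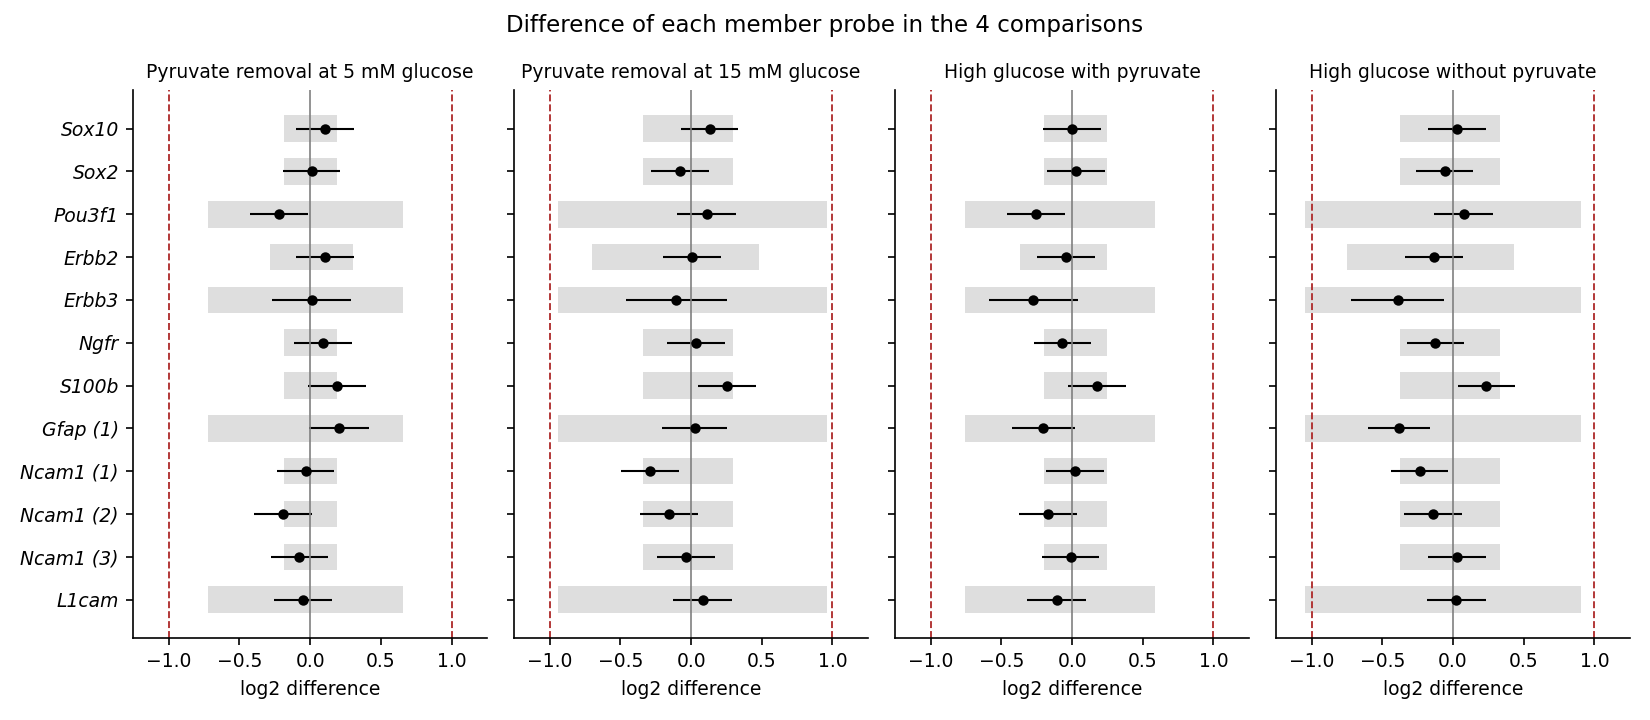
Log2 difference of each of the 12 probes detected on all arrays in the 4 comparisons, with bars for the error assigned by the scanner software, grey bands for the central 95% of all probes of like brightness and dashed lines at 2-fold. All points lie between −0.39 and 0.25, and 11 of 12 in pyruvate removal at 5 mM glucose and all 12 in the other comparisons lie inside the grey bands; points near 0 change sign with the scaling.

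Across the 4 comparisons, 0 of 48 differences exceeded 2 times the assigned error, and the largest was 1.73 times its error, for Gfap in high glucose without pyruvate. The assigned error was 0.20 for Ngfr, although its standard error over spots was 0.01 to 0.02. For the brightest members, 2 times the assigned error lay outside the central 95% of probes of like brightness in each comparison. The widest such range was −0.38 to 0.33, in high glucose without pyruvate. The count of 0 thus cannot set these members apart from other bright probes, and no share over all probes is given. Scaling to spike-in probes moved the median of all probes by −0.19 and −0.04 in the pyruvate comparisons at 5 and 15 mM, and by −0.35 and −0.20 in the glucose comparisons with and without pyruvate. The members moved with that median, so the signs given here are relative to the other probes on the array.

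Pyruvate and glucose were also fitted together as additive terms over all 4 arrays, which leaves 1 residual degree of freedom and counts as error whatever part of the pyruvate difference varied between the glucose concentrations. By limma with Benjamini-Hochberg adjustment over 31274 probes, 0 probes (0%) were called for pyruvate and 0 (0%) for glucose, while an unadjusted p under 0.05 was met by 1081 (3.46%) and 1490 (4.76%). Among the 13 member probes in the fit, 0 met it for either term. Over the alternative settings at most 1 met it for pyruvate and at most 3 for glucose, the latter with spike-in scaling. The member with the lowest p was Erbb3 for glucose, with a coefficient of −0.33, an unadjusted limma p of 0.0506 and an adjusted p of 0.773. For pyruvate the lowest adjusted p among members was 0.988. With 1 residual degree of freedom, a count of 0 does not show that levels were the same.

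The other genes of these pathways were examined as 6 lists of 104 genes, all on the array, of which 94 were detected on all arrays. Where a gene had several measured probes their differences were averaged. In pyruvate removal at 5 mM glucose 1 of 94 measured genes was past 2-fold. In the other comparisons 0 of 95, 0 of 94 and 0 of 95 were, in the order above. Of all single probes on the array, 1.17%, 2.10%, 0.968% and 2.40% were past 2-fold in the same order. Averaging over probes can make a difference smaller, and no share over all genes is given. The counts thus cannot set these lists apart from the rest of the array. The list gene past 2-fold was Pou3f2, a POU factor that acts alongside Pou3f1. Its detected probe read 17.5 with pyruvate and 41.9 without (1.29 on the log2 scale) at the dim end of the array. Single probes of Ank3, an ankyrin that anchors L1-family proteins, and of Tnc, an extracellular matrix protein of immature and injured nerve, were lower without pyruvate at 15 mM glucose, at −1.13 and −1.15. Each gene had other probes, so its mean stayed within 2-fold (−0.60 for Ank3, −0.84 for Tnc).

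The relatives and partners of Ncam1 and L1cam stood on 1 side in the comparisons that involve [Glc 15 mM/Pyr (−)]. Of 13 measured adhesion genes, 0 were higher and 13 lower in pyruvate removal at 15 mM glucose, with a median of −0.11, where 57.1% of all named genes were higher and their median was 0.03. In high glucose without pyruvate, which shares that array, the counts were again 0 and 13, with a median of −0.18, where 56.5% of all genes were higher. Both counts of 0 were the same under all 6 ways of processing. The share of all genes that were higher ran from 42.0% to 57.1% and from 20.4% to 56.5% over these ways. In pyruvate removal at 5 mM glucose 8 of the 13 were higher, where 43.7% of all genes were, and in high glucose with pyruvate 6 were, where 44.4% of all genes were. These counts depended on the processing, from 1 to 12 and from 1 to 10 over the 6 ways. The differences at 15 mM glucose ran from −0.69 to −0.01. Of the members themselves, Ncam1 was on the same side and L1cam was not (0.08).

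The S100 family lay on the other side. Of its 10 measured genes other than S100b, 8 were higher in pyruvate removal at 15 mM glucose under each of the 6 ways of processing, with a median of 0.18, and the largest difference was that of S100a5 (0.48). Of all genes 57.1% were higher in this comparison, and 42.0% to 57.1% over the 6 ways. In high glucose without pyruvate 10 of 10 were higher, with a median of 0.18, where 56.5% of all genes were higher. With spike-in scaling 3 of 10 were higher, with a median of −0.02, where 20.4% of all genes were and their median was −0.16. In pyruvate removal at 5 mM glucose, where S100b was also higher and 43.7% of all genes were, 5 of 10 genes were higher, with a median of 0.01, and 0 to 6 over the 6 ways of processing.

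The remaining lists were mixed. In pyruvate removal at 15 mM glucose 57.1% of all named genes were higher, and 42.0% to 57.1% over the 6 ways of processing. Of 22 measured transcription factors of the lineage, 7 (5 to 7 over the ways of processing) were higher in pyruvate removal at 15 mM glucose and the median was −0.15. Among them, chosen after their values were seen, were Jun, the factor that drives the repair state (0.53), and the helix-loop-helix inhibitors Id2 (0.66) and Id4 (0.48), all higher, and the Notch target Hes1, lower (−0.66). Egr2, the master factor of myelination, was at −0.58 in pyruvate removal at 5 mM glucose and at −0.27 at 15 mM. Of 18 measured genes of neuregulin and ErbB signalling, 4 (1 to 4 over the ways of processing) were higher in the same comparison, the median was −0.06, and the largest difference was that of the ligand Ereg, which was at −0.64 at 5 mM and −0.80 at 15 mM glucose. Of 14 neurotrophin genes, 10 (8 to 10) were higher, with a median of 0.08, and Ntf5, which encodes neurotrophin 4, had the largest difference of the list, 0.92 in pyruvate removal at 5 mM glucose. Of 18 other genes of the immature and repair state, 7 (6 to 7) were higher, with a median of −0.05. The probes of Ereg and Ntf5 were dim. At 5 mM glucose with and without pyruvate, Ereg read 61.5 and 38.3 and Ntf5 read 70.0 and 129. The central 95% of probes of like brightness ran from −0.72 to 0.65 in pyruvate removal at 5 mM and from −0.94 to 0.96 at 15 mM glucose. Ereg lay inside both ranges, and Ntf5 lay outside the one at 5 mM. No list was tested.

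**Figure D4:**
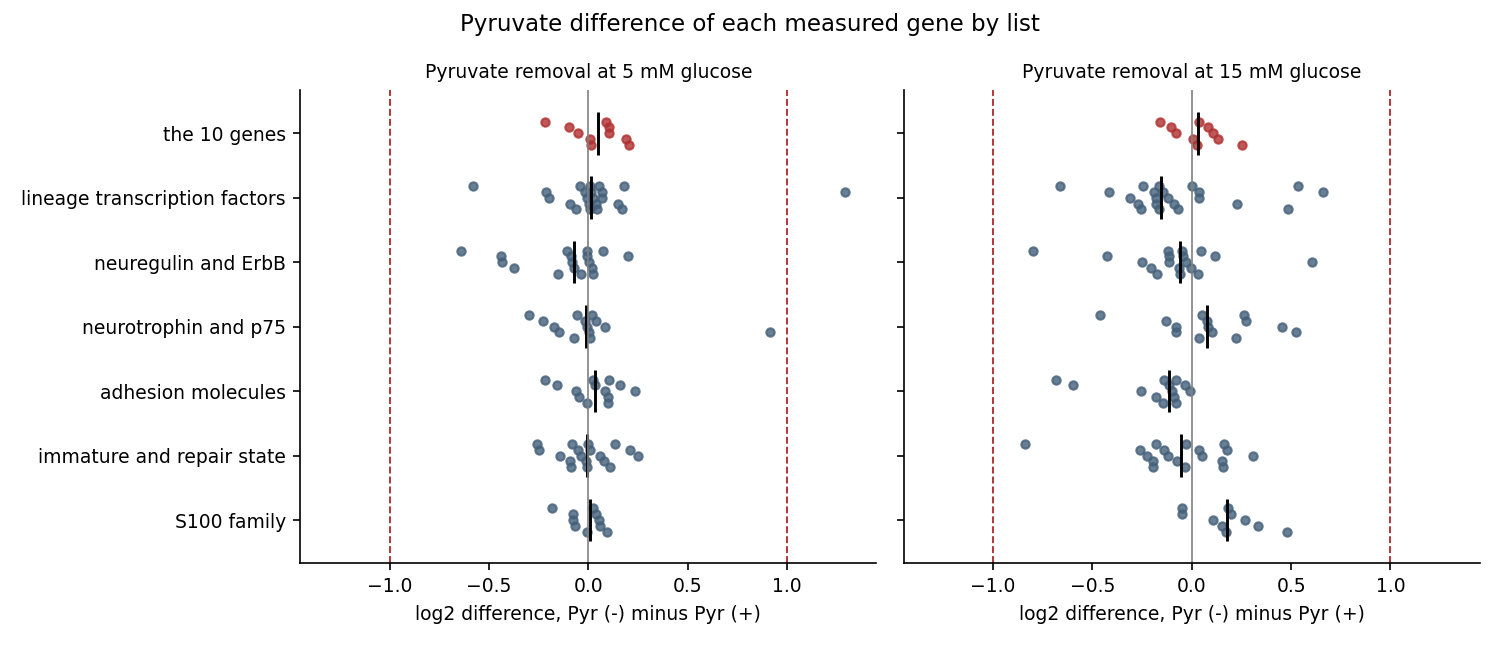
Log2 difference without minus with pyruvate at 5 mM (left) and 15 mM glucose (right) for each measured gene of the 10 described (red) and of the 6 lists (blue), with a black line at the median and dashed lines at 2-fold. At 15 mM glucose all 13 adhesion genes lie below 0 and 8 of 10 S100 genes above it, under all 6 ways of processing, and 1 gene (Pou3f2, at 5 mM) is past 2-fold.

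The Schwann cell identity of the line was compared with markers of other states and cell types, on the same detection criterion. All 10 markers of myelinating Schwann cells had a probe well above background on all arrays. Among the other transcription factors of the lineage, Sox9, Sox8 and Egr3 were detected on no array. Of other cell types, 7 of 8 fibroblast, 2 of 6 endothelial, 6 of 6 macrophage, 5 of 8 neuronal, 4 of 6 melanocyte, 5 of 6 perineurial and smooth muscle, and 6 of 6 astrocyte and oligodendrocyte markers were detected on all arrays. Cdh5 and Tie1 of endothelium, Syt1 and Nefm of neurons, Dct and Tyrp1 of melanocytes and Myh11 of smooth muscle were detected on none. The summed scaled level of a list, in which its brightest probes weigh most, ran over the arrays from 58.2 to 61.8 times the 75th percentile for fibroblast and from 2.90 to 3.66 for macrophage markers. Such a sum depends on how strongly each probe binds and includes genes that were not detected. It can therefore be compared between arrays for 1 list, but not between lists or cell types. For neuronal markers it was 5.54 and 5.16 at normal glucose and 4.15 and 3.81 at high glucose, with and without pyruvate. Most of the neuronal sum was Snap25, at 5.221, 4.796, 3.791 and 3.352 in the same order, so its fall is mainly that of 1 gene. Most of the fibroblast sum was likewise Col1a2, from 51.4 to 54.5. The median difference of the measured neuronal genes was 0.07 in high glucose with pyruvate (3 of 5 higher) and 0.58 without it (4 of 6 higher). Of these markers, the neuronal RNA-binding protein gene Elavl3 was past 2-fold in pyruvate removal at 15 mM glucose (44.2 to 119, 1.39 on the log2 scale), and a probe of Rbfox3 (1.18) and the only probe of Nefl (1.22), also neuronal genes, were past it in high glucose without pyruvate. These were dim probes. Snap25, which encodes a synaptic vesicle fusion protein and was named after its values were seen, was a bright probe that was lower at high glucose, at −0.46 with and −0.52 without pyruvate. In pyruvate removal at 15 mM glucose, the macrophage and lysosome gene Cd68 was at 0.88. The largest differences of the remaining lists were those of Col1a1 for fibroblasts (0.28 in high glucose with pyruvate), Pecam1 for endothelium and Lypd2 for perineurium (−0.51 and −0.71 in high glucose without it), Tyr for melanocytes (−0.43 in pyruvate removal at 5 mM glucose) and 1 of 3 probes of Slc1a2 for astrocytes, whose mean was −0.20 in both comparisons with [Glc 15 mM/Pyr (−)]. Whether such cells or transcripts play a part in the levels of the members was not tested.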

How the data were processed

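RNA of IMS32 cells was labelled with Cy3 and hybridized to 1 Agilent one-colour array per group, all on 1 slide; whether the RNA of a group came from several dishes is not given in the sources used here. The authors deposited the scanner output, whose processed intensity per spot is background-corrected but not scaled between arrays, made with Agilent Feature Extraction 11.5.1.1 per the submitters' processing notes. A second deposited table gives the same intensity as a ratio to a constant of each array, and 44397 of 44397 features of each array matched this. Every column of the files had a sample, and 0 columns of samples were left unused.

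Control spots and outlier spots (166 to 183 per array) were left out, spots of a probe were averaged, and the log2 of the intensity was centred on the 75th percentile of each array. A probe is called detected where the scanner file marks it well above background. A probe below background in 1 group gives only a bound, against the higher of its own signal and the lowest signal well above background on that array. The number of arrays limits the precision. Probes printed 10 times had a median SD between spots of 0.0707 to 0.0772 on the log2 scale. The fold between 2 arrays was not tested; the additive fit used limma 3.58.1 under R 4.3.3, and the rest Python 3.11.15, numpy 2.4.6 and pandas 2.3.3. The fold count and the fit were run on simulated data with known changes and the same noise for every probe, which checks the code only. For the fold count this noise was smaller than the spread between these arrays. The simulations thus give no error rate for these data. Of 31087 gene names, 22587 matched RefSeq (GRCm38.p6).

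The members and all lists were chosen with earlier results of these data known. Named genes are all members, the genes of each list with a probe past 2-fold or otherwise the largest difference, and markers detected on no array; Jun, Id2, Id4, Hes1, Egr2 and Snap25 were named after their values were seen. A gene that the rule takes is not reported here. The 6 ways of processing are the main one, the 75th percentile over probes detected on all arrays, quantile normalization, scaling to 8 spike-in probes, normexp with an offset of 50, and the deposited ratio. Filters on dim probes, a 1.5-fold threshold, the scanner's weaker detection criterion and an intensity trend in limma were also tried.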

Additional observations from a re-analysis of the deposited data

Results flagged for a closer look

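The pyruvate difference of 4 genes pointed one way at 5 mM and the other way at 15 mM glucose, each with 1 array per group, and the difference between the glucose concentrations was not tested. It was 0.33 for Pou3f1 (0.11 at 15 mM minus −0.22 at 5 mM), 0.13 for L1cam (0.08 minus −0.05), −0.12 for Erbb3 (−0.11 minus 0.01) and −0.089 for Sox2 (−0.08 minus 0.01). The assigned errors of the pyruvate difference at 5 and 15 mM were 0.21 and 0.21 for Pou3f1 and for L1cam. They were 0.28 and 0.36 for Erbb3, and 0.20 and 0.20 for Sox2. The values of L1cam, Erbb3 and Sox2 were thus smaller than the error of either single difference, and Erbb3 and Sox2 were near 0 at 5 mM. With spike-in scaling Erbb3 (−0.18 and −0.14) and Sox2 (−0.18 and −0.12) were below 0 at 5 and at 15 mM, and with normexp background correction Pou3f1 was below 0 at both (−0.11 and −0.04), so the opposite directions of these 3 genes depend on the processing. L1cam kept opposite signs with spike-in scaling (−0.24 and 0.05), and with normexp both signs turned (0.01 and −0.05).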

How the results depend on the processing

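The count of probes called by limma stayed at 0, for all probes and for the members, under all 8 alternatives of either term. Probes with an unadjusted limma p under 0.05 numbered 1081 for pyruvate and 1490 for glucose, and at most 1559 (normexp) and 5079 (spike-in scaling), and member probes under it at most 1 and 3, the latter with spike-in scaling. The 12 detected probes were also the 12 detected on all arrays by the weaker criterion. Scaling to spike-in probes moved the median difference of the members to −0.18 in pyruvate removal at 5 mM glucose, −0.41 in high glucose with pyruvate and −0.29 in high glucose without pyruvate, along with the median of all probes. With no filter on dim probes, 1 member probe was past 2-fold in pyruvate removal at 15 mM glucose and 1 in high glucose without pyruvate, both times the second Gfap probe, which was not well above background on those arrays. Among the 48 differences of single probes, the sign changed in 16 with spike-in scaling, 11 with normexp, 5 with quantile normalization, 4 with the percentile over detected probes and 1 with the deposited ratio. The signs kept under all of them were 6 of 12 and 7 of 12 for pyruvate at 5 and 15 mM glucose, and 3 of 12 and 8 of 12 for glucose with and without pyruvate. No paired analysis was possible because each group has 1 array and so no replicate numbers to pair, and for the same reason no array could be left out of a comparison. Dim probes such as Erbb3 and Gfap are limited by their signal over background.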
